A study of Bos taurus with 12 samples.

Results

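SRF, FARP1, KIFC3 and PPFIBP1 encode proteins of the cytoskeleton or of its transcriptional control, and they are 4 of the 27607 genes counted in peripheral white blood cells (PWBCs) of beef heifers. They were selected on the same comparison of fertile with subfertile heifers that is described here. FARP1 (ENSBTAG00000000146), KIFC3 (ENSBTAG00000007181) and PPFIBP1 (ENSBTAG00000004283) were chosen because their transcripts differed between the groups, and SRF (ENSBTAG00000012777) was chosen as a transcription factor by a regulatory impact score built from its correlation with the genes that differed. The group differences of the 4 genes are therefore given as a description, without a test. Tests were kept for relations within groups and for the reproductive tract score, and where SRF was set against genes that differed between the groups its values are a description too. All 4 genes passed the filter on low counts that left 13012 genes.

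The libraries came from 12 Simmental-Angus cross-bred heifers, 6 per group, bled 2 days before artificial insemination (AI) in their first breeding season. Fertile heifers had conceived at the first AI and carry the label Pregnant, while subfertile heifers, labelled Open, were still not pregnant after AI and a following period with bulls. All heifers received the same hormonal synchronisation and semen of the same sire, were picked for similar body weight and age, and had a reproductive tract score (a scale of pubertal maturity) of 4 or 5, with 1 heifer per group at 5. Heifers were assigned to groups after the outcome was known, and neither group received a treatment of its own. White cells are a mixture of cell types and no cell counts were used here, so fewer cells of a type and less RNA per cell cannot be told apart.

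Serum response factor (SRF) is a MADS-box transcription factor. It binds CArG boxes and works with cofactors of the myocardin-related (MRTF) family, which sense the pool of unpolymerised actin, or with ternary complex factors of the ELK family, which respond to MAP kinase signalling. Its known targets are genes of the actin cytoskeleton and immediate early genes. FARP1 is a FERM-domain guanine nucleotide exchange factor of the Dbl family, whose proteins direct actin remodelling. KIFC3 is a kinesin with a C-terminal motor that walks towards the minus end of microtubules, and PPFIBP1 is liprin beta-1, a scaffold protein of the liprin family that takes part in cell adhesion and motility.

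Library totals lay between 14010736 and 21278761 counts, 15625 to 16323 genes were detected per library, and no library pair held identical values. With edgeR's quasi-likelihood test, 182 of the 13012 genes (1.4%) passed the thresholds of the study, unadjusted P of 0.05 or less and an absolute log2 fold change (log2FC) of 0.5 or more. Of the tested genes, 86 (0.661%) were called higher and 96 (0.738%) lower in subfertile heifers. After Benjamini-Hochberg adjustment 0 genes (0%) passed, with 341 at an unadjusted P of 0.05 or less. DESeq2 called 230 genes at the same thresholds, 417 at the unadjusted P, and 0 after adjustment. Both 341 and 417 are fewer genes than an unadjusted P of 0.05 would pass on average if no gene differed. P-values throughout measure the spread between these heifers. In each contrast below a negative log2FC means a lower level in subfertile heifers, and levels are given as CPM, the count of a gene relative to its TMM-scaled library, which are compared between heifers but not between genes, since they are not corrected for transcript length.

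SRF had the smallest group difference of the 4 genes, on 530 to 1342 reads per library. Its level was 40.9, 46.3, 50.3, 60.0, 54.7 and 81.1 CPM in fertile heifers 1 to 6, and 40.2, 41.4, 51.3, 37.7, 50.3 and 50.9 CPM in subfertile heifers 1 to 6. The groups overlapped broadly, with 3 fertile heifers above every subfertile one and 2 subfertile heifers below every fertile one. Fertile heifers averaged 55.5 ± 14.2 CPM and subfertile heifers 45.3 ± 6.19 CPM (SD, n = 6 each), which gave a log2FC of -0.29 (SE 0.15). Fertile heifer 6 held the highest value, and without it the log2FC was -0.16. SRF did not reach the fold threshold in the full set or in any of the 12 fits that left out 1 heifer.

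FARP1, the exchange factor, was lower in subfertile heifers. Its counts were small, 58 to 135 reads per library. The levels in fertile heifers 1 to 6 were 4.33, 8.71, 7.33, 6.48, 6.07 and 8.16 CPM, against 2.7, 5.00, 3.34, 4.27, 5.15 and 3.33 CPM in subfertile heifers 1 to 6. All fertile heifers but heifer 1 lay above the highest subfertile value, and 4 subfertile heifers lay below the lowest fertile one. The means were 6.85 ± 1.58 and 3.97 ± 0.995 CPM (SD, n = 6 each), a log2FC of -0.79 (SE 0.22), or 0.579 of the fertile level. Leaving out each heifer in turn gave log2FC values from -0.89 to -0.70.

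KIFC3, the minus-end kinesin, had the widest spread of the 4 genes. Fertile heifers 1 to 6 had 14.0, 36.5, 23.7, 23.3, 31.7 and 116 CPM, and subfertile heifers 1 to 6 had 6.34, 19.7, 8.21, 27.0, 31.0 and 20.7 CPM. A single library, fertile heifer 6, stood far above the other 11, and only 3 fertile heifers exceeded every subfertile one. The means were 40.8 ± 37.4 and 18.8 ± 9.86 CPM (SD, n = 6 each), with medians of 27.7 and 20.2 CPM, and the log2FC was -1.12 (SE 0.50). Without fertile heifer 6 the log2FC was -0.47 and no longer reached the fold threshold. The thresholds that chose it were also missed, through the P alone, without fertile heifer 2 (log2FC -1.15), without subfertile heifer 1, 2, 3 or 6 (-0.94, -1.13, -0.97 and -1.15), and among heifers of tract score 4 only (-0.97, SE 0.53). Counts ran from 136 to 1913 reads per library.

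PPFIBP1, the liprin, was the member with a higher level in subfertile heifers. Fertile heifers 1 to 6 had 2.85, 2.78, 2.36, 4.25, 5.25 and 2.24 CPM, and subfertile heifers 1 to 6 had 4.89, 9.14, 5.14, 8.04, 5.56 and 5.38 CPM. Fertile heifer 5 was the exception to an otherwise complete separation, since the other fertile heifers all lay below the lowest subfertile value. The means were 3.29 ± 1.20 and 6.36 ± 1.78 CPM (SD, n = 6 each), a log2FC of 0.94 (SE 0.26) and 1.92 times the fertile level. The value stayed between 0.81 and 1.13 when single heifers were left out. It rests on 37 to 128 reads per library.

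**Figure D1:**
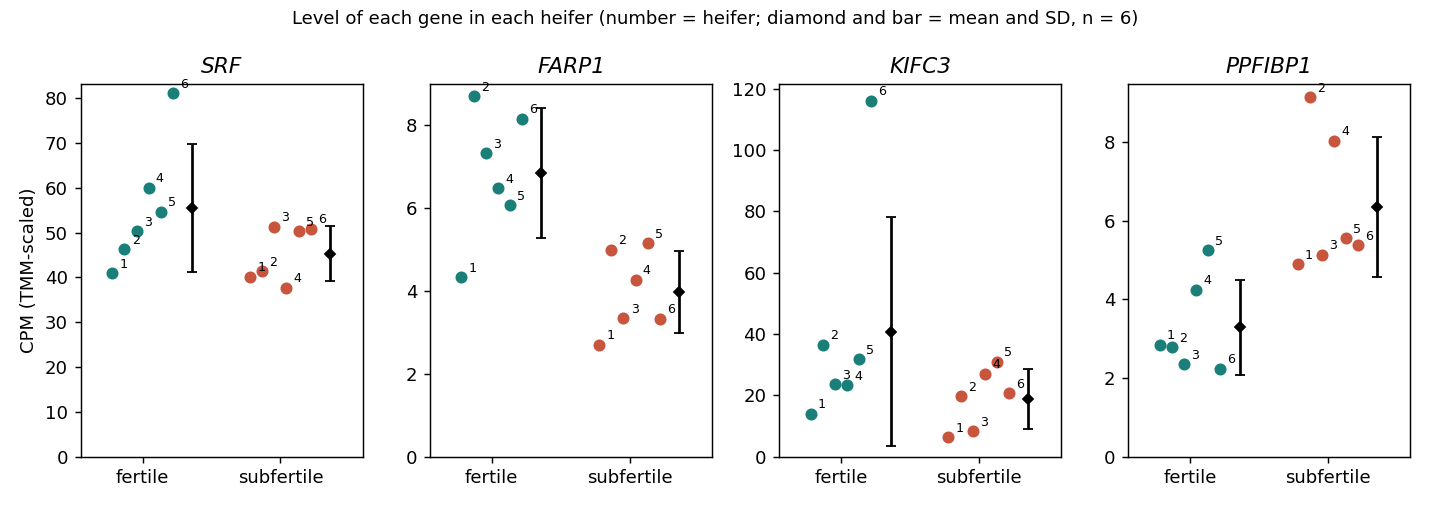
Level of SRF, FARP1, KIFC3 and PPFIBP1 (y axis, CPM) in fertile and subfertile heifers. Each point is 1 heifer with its number, and the diamond and bar give the group mean and SD (n = 6). Fertile heifer 6 stands apart at 116 CPM for KIFC3 and is also the highest for SRF at 81.1 CPM, but not for FARP1 or PPFIBP1.

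Past both thresholds in the full set were therefore FARP1, KIFC3 and PPFIBP1, the genes picked for this, and nothing is read from that count against the 1.4% of all genes. Spread within groups enters the P by which these genes were chosen, so it is given as a description. The residual SD of log2 CPM was 0.28 for SRF, 0.36 for FARP1, 0.98 for KIFC3 and 0.43 for PPFIBP1, which are the 44.8th, 59.2nd, 94.6th and 67.9th percentiles of all genes tested. The biological coefficient of variation of KIFC3 was 0.58, against a trend of 0.23 for genes of its abundance. For SRF (0.20 against 0.21), FARP1 (0.28 against 0.38) and PPFIBP1 (0.32 against 0.39) it was at or below the trend.

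**Figure D2:**
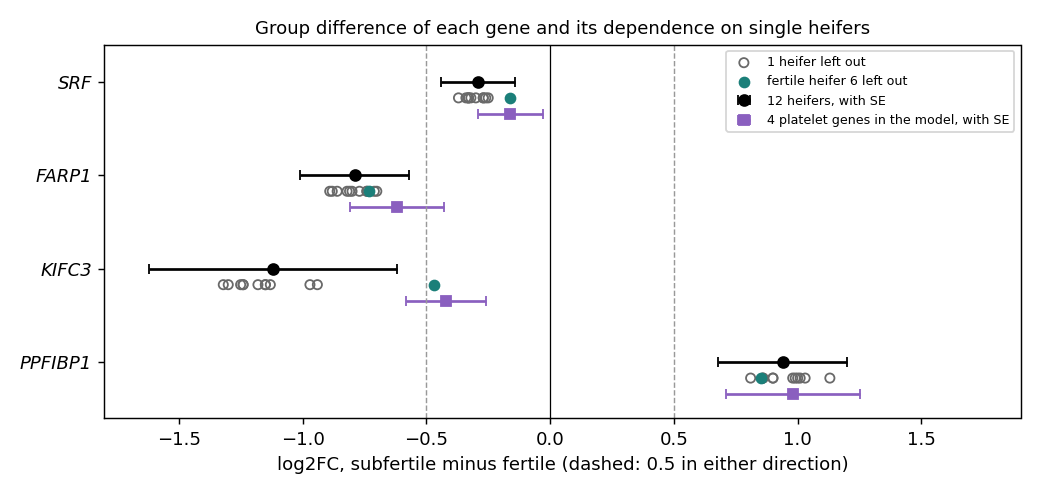
Group difference of each gene as log2FC, subfertile minus fertile (x axis). Black points with bars are the fit to 12 heifers with its SE, open circles the fits without 1 heifer, the green point the fit without fertile heifer 6, and the purple square the fit with 4 platelet genes in the model, with its SE. KIFC3 moves from -1.12 to -0.47 without fertile heifer 6, while FARP1 and PPFIBP1 stay past 0.5 in each fit that leaves out a heifer.

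The reproductive tract score, which was not used to choose the genes, gave no difference past the test. The 2 heifers with a score of 5 and the 10 with a score of 4 differed by a log2FC of -0.26 (SE 0.20) for SRF, -0.04 (SE 0.31) for FARP1, -0.82 (SE 0.71) for KIFC3 and -0.37 (SE 0.36) for PPFIBP1. The adjusted P from edgeR's quasi-likelihood test was 0.867 for SRF, KIFC3 and PPFIBP1 and 0.985 for FARP1. Among all 13012 genes 0 (0%) passed adjustment for the score and 255 (1.96%) passed the unadjusted P and fold thresholds. With 2 heifers at a score of 5, the standard errors allow sizeable differences in either direction.

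Whether the members rise and fall together from heifer to heifer was examined after subtracting the group means from log2 CPM, so that the group difference plays no part. Among FARP1, KIFC3 and PPFIBP1 there are 3 pairs, tested by 100000 permutations within groups (two-sided). FARP1 and KIFC3 were positively correlated, with Pearson r = 0.76 (P = 0.0111, adjusted P = 0.0334) and a Spearman coefficient of 0.71 (P = 0.019, adjusted P = 0.057) over 12 heifers. The coefficient was 0.70 among fertile and 0.82 among subfertile heifers, 0.72 without the 2 heifers farthest from the median of FARP1, and 0.69 to 0.81 when each heifer was left out, with the test lost in 4 of these 12 cases. PPFIBP1 was not correlated past the test with FARP1 (r = 0.11, P = 0.746, Spearman 0.09, P = 0.793, adjusted P = 0.926 for r) or with KIFC3 (r = 0.03, P = 0.926, Spearman 0.00, P = 1.0, adjusted P = 0.926 for r). Without the 2 farthest heifers these coefficients were 0.04 and 0.30. They were -0.34 among fertile and 0.68 among subfertile heifers with FARP1, and -0.32 and 0.53 with KIFC3, and the difference between the groups was not tested.

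SRF is described without a test here, because its score already used such correlations. Its r was 0.30 with FARP1, 0.55 with KIFC3 and -0.24 with PPFIBP1. The value for KIFC3 was 0.85 among fertile and 0.03 among subfertile heifers, and fell to 0.16 without fertile heifer 6. That for PPFIBP1 was 0.05 without fertile heifer 6, and that for FARP1 was 0.00 without fertile heifer 1.

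The known targets of SRF tested here were not among the called genes that its score used. Several of them follow KIFC3, which the score did use, with r = 0.97 for ZYX and 0.69 for CNN2. The tests below are therefore not independent of the choice of SRF. Of 30 target genes listed, 18 of the actin cytoskeleton and 12 immediate early genes, 12 have an identifier in the tables used here, and all 12 passed the filter. CNN2, encoding calponin 2, an actin-binding protein, was the only target correlated with SRF past the test over all 12 heifers, with r = 0.86 (permutation P = 0.00101, adjusted P = 0.0121 over 12 genes). Its Spearman coefficient was 0.73 (P = 0.0124, adjusted P = 0.149). CNN2 measured 423, 454, 542, 655, 555 and 711 CPM in fertile heifers 1 to 6, so it was highest in heifer 6 and lowest in heifer 1, the order of the extremes of SRF. In subfertile heifers 1 to 6 it measured 413, 496, 500, 508, 588 and 567 CPM. The coefficient was 0.95 among fertile and 0.62 among subfertile heifers and 0.90 without the 2 heifers farthest from the median of SRF. With 1 heifer left out the coefficient of CNN2 lay between 0.81 (without fertile heifer 6) and 0.91. No target passed the adjusted test when fertile heifer 1, 2 or 6 was left out, and 7 targets passed when subfertile heifer 4 was left out.

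The cytoplasmic actins ACTB (r = 0.68, adjusted P = 0.166) and ACTG1 (r = 0.68, adjusted P = 0.168) and the actin-severing cofilin CFL1 (r = 0.64, adjusted P = 0.166) had positive coefficients with SRF that did not pass. For ACTB and ACTG1 the coefficients were 0.30 and 0.20 without fertile heifer 6. The focal adhesion protein gene ZYX (0.57) and the myosin light chain gene MYL9 (0.56) behaved likewise, each at 0.23 without that heifer. Among fertile and subfertile heifers the coefficients were 0.85 and 0.22 for ACTB, 0.79 and 0.29 for ACTG1, and 0.95 and 0.2 for CFL1. They were 0.87 and 0.0 for ZYX and 0.87 and -0.08 for MYL9, and the difference between the groups was not tested. The immediate early genes NR4A1 and ATF3 had negative coefficients with SRF, -0.25 and -0.39, neither past the test. The coefficient of ATF3 was 0.15 without fertile heifer 6 and 0.24 without the 2 farthest heifers. MRTFA, the only SRF cofactor with an identifier, had r = 0.40 with SRF (0.23 without fertile heifer 6), given as a description.

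KIFC3 had higher coefficients than SRF with several of these actin genes, a difference that was not tested. Its r was 0.97 with ZYX, 0.95 with MYL9, 0.89 with ACTG1 and 0.86 with both ACTB and CFL1. ZYX ranged from 265 CPM in fertile heifer 1 to 2250 CPM in fertile heifer 6, and from 225 CPM in subfertile heifer 1 to 1010 CPM in subfertile heifer 4. Without fertile heifer 6, KIFC3 had r = 0.94 with ZYX, 0.93 with MYL9, 0.82 with ACTG1 and 0.74 with ACTB, while TPM4 went from 0.72 to 0.43 and CAP1 from 0.61 to 0.28. The coefficients of FARP1 were 0.78 with ZYX, 0.74 with MYL9 and CFL1, 0.64 with ACTB, 0.62 with ACTG1 and 0.48 with CNN2. Those of PPFIBP1 lay between -0.48 (TPM4) and 0.53 (ACTN1), and these were -0.33 and 0.82 without fertile heifer 6. Leaving out that heifer took PPFIBP1 with FHL2 from 0.39 to 0.71.

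**Figure D3:**
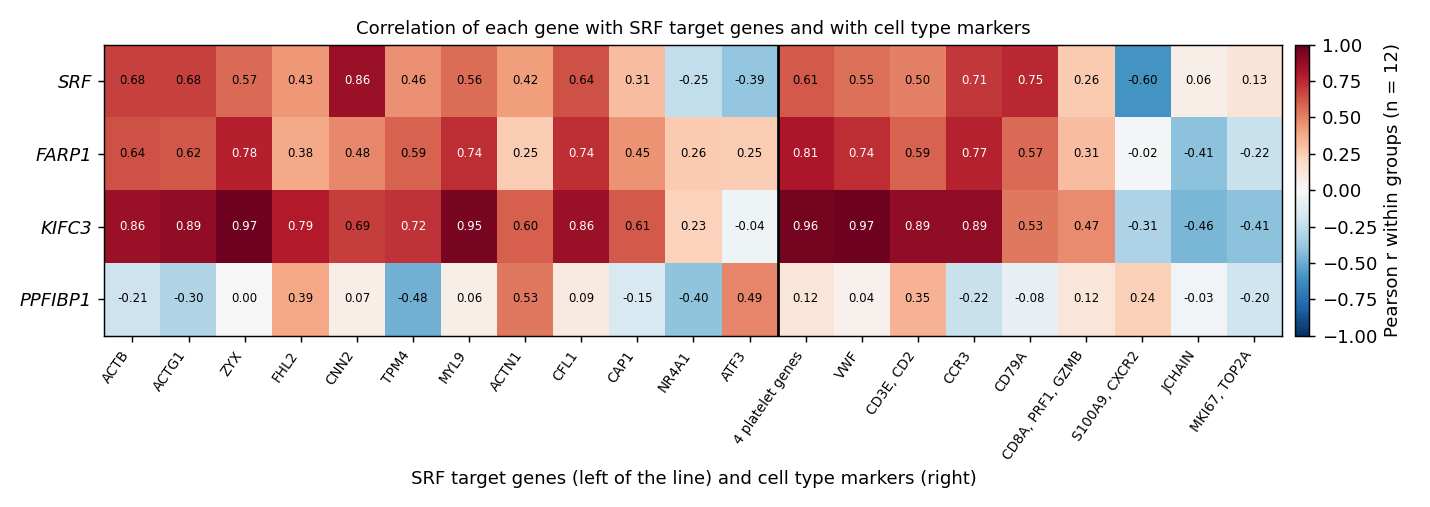
Pearson r of each gene (rows) with 12 SRF targets and with markers of blood cell types (columns), on log2 CPM after subtracting group means, over 12 heifers. Red is positive and blue negative. KIFC3 is most strongly related to ZYX, MYL9, VWF and the 4 platelet genes, SRF to CNN2, and PPFIBP1 has no coefficient beyond 0.53 in either direction. That limit depends on fertile heifer 6, without which PPFIBP1 has 0.82 with ACTN1 and 0.71 with FHL2.

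Markers of the cell types that a white cell preparation can hold were related to the members in 40 relations, 4 genes by 10 marker lists, adjusted together. GZMB of the CD8 T and NK cell list (log2FC -1.0), JCHAIN of the plasma cell list (0.59) and TOP2A of the proliferating cell list (0.84) were themselves called between the groups, and their part in the members' differences was not tested. For these 3 lists the coefficients of SRF, 0.26, 0.06 and 0.13, are a description without a test, since its score used genes that differed. With 1 heifer left out they ran from 0.06 to 0.56, from -0.08 to 0.51 and from -0.25 to 0.23. The lists are covered in part only, because identifiers were paired with names for 2916 of the tested genes (22.4%). For platelets, 4 of 9 markers could be used: ITGA2B and ITGB3, the subunits of the fibrinogen receptor, GP9 of the von Willebrand factor receptor complex, and TUBB1, the beta-tubulin of platelets and megakaryocytes. With fewer than 80% of the list covered, the values stand for these 4 genes and not for a platelet count.

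KIFC3 followed the 4 platelet genes closely, with r = 0.96 and a Spearman coefficient of 0.94 (permutation P = 3e-05, adjusted P = 0.001 for r and 0.004 for Spearman). The coefficient was 0.97 among fertile and 0.96 among subfertile heifers, 0.89 without the 2 farthest heifers, and at least 0.93 when any heifer was left out. Each platelet gene taken alone had r between 0.92 and 0.94 with KIFC3. TUBB1 was 365, 2240, 1620, 1120, 2040 and 7700 CPM in fertile heifers 1 to 6, and 350, 1000, 717, 2520, 1530 and 974 CPM in subfertile heifers 1 to 6. Fertile heifer 6 was again the highest, and fertile heifer 1 and subfertile heifer 1 the lowest of their groups, as for KIFC3.

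The summed level of the 4 platelet genes had a range of 536 to 9910 CPM (median 2450) in fertile and 528 to 3160 CPM (median 1420) in subfertile heifers. None of the 4 was called between groups, with log2FC values of -0.34 (ITGA2B), -0.95 (ITGB3), -1.22 (GP9) and -1.09 (TUBB1). Their mean log2 CPM was then added to the model, an alternative chosen after seeing the data. The log2FC of KIFC3 went from -1.12 (SE 0.5) to -0.42 (SE 0.16), below the fold threshold but still negative by more than its SE. In the same fit FARP1 had -0.62 (SE 0.19), SRF -0.16 (SE 0.13) and PPFIBP1 0.98 (SE 0.27).

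FARP1 was also correlated with the platelet genes (r = 0.81, permutation P = 0.00366, adjusted P = 0.0254, Spearman 0.80, adjusted P = 0.0452). This was 0.79 among fertile and 0.86 among subfertile heifers and 0.79 without the 2 farthest heifers. Once the platelet genes were taken out of both, the correlation of FARP1 with KIFC3 was -0.10 (permutation P = 0.757), an alternative also chosen after seeing the data. SRF had r = 0.61 with the platelet genes (adjusted P = 0.212), 0.87 among fertile and 0.00 among subfertile heifers. That r was 0.29 without fertile heifer 6, and the Spearman coefficient over all heifers was 0.23. PPFIBP1 had r = 0.12 (adjusted P = 0.879), which was -0.19 among fertile and 0.65 among subfertile heifers, 0.49 without fertile heifer 6 and 0.57 without the 2 farthest heifers.

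**Figure D4:**
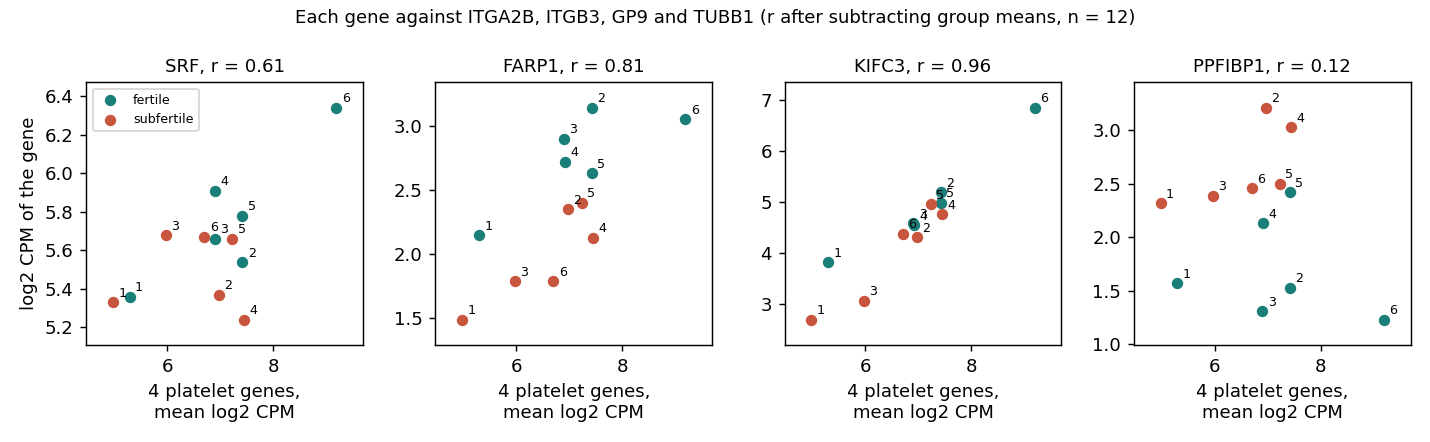
Level of each gene (y axis, log2 CPM) against the mean log2 CPM of ITGA2B, ITGB3, GP9 and TUBB1 (x axis). Each point is 1 heifer with its number, and r is given after subtracting group means (n = 12). KIFC3 lies along a line in both groups (r = 0.96), FARP1 rises with the platelet genes at a lower level in subfertile heifers (r = 0.81), and PPFIBP1 has r = 0.12, with fertile heifer 6 at its lowest level and at the highest of the platelet genes.

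Other markers moved with KIFC3 as well. The single endothelial marker with an identifier, VWF, which megakaryocytes also make, had r = 0.97 (adjusted P = 0.001). The T cell genes CD3E and CD2 (2 of 7 markers) had r = 0.89 (adjusted P = 0.0122), and the eosinophil chemokine receptor CCR3 (1 of 5 markers) had r = 0.89 (adjusted P = 0.0028). CCR3 was 207 CPM in fertile heifer 6, against a fertile median of 39.7 CPM and a subfertile maximum of 41.1 CPM. FARP1 was related to CCR3 too (r = 0.77, adjusted P = 0.0254, Spearman adjusted P = 0.122). In fertile heifer 6 the neutrophil gene S100A9 was at its fertile minimum of 21.7 CPM and CXCR2, another neutrophil marker, had 0 counts. The part of these cell types in the members' levels was not tested apart from the fit with the platelet genes.

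With CD79A, the only B cell marker with an identifier, SRF had r = 0.75 (adjusted P = 0.0539), which did not pass adjustment, and a Spearman coefficient of 0.78 (adjusted P = 0.0452), which did. FARP1, KIFC3 and PPFIBP1 did not pass the test with the CD8 T and NK cell, neutrophil, plasma cell or proliferating cell markers, nor did SRF with the neutrophil markers. Those coefficients ran from -0.60 (SRF with the neutrophil genes, adjusted P = 0.212, and -0.21 without fertile heifer 6) to 0.47 (KIFC3 with the CD8 T and NK cell genes, adjusted P = 0.331). PPFIBP1 passed the test with none of the 10 marker lists, its coefficients running from -0.22 (CCR3) to 0.35 (T cell genes). Without fertile heifer 6 these were 0.10 and 0.68. No gamma-delta T cell, erythroid or general leukocyte marker had an identifier, so these were not analysed here. Library measures (total count, genes detected, share of the most abundant gene) passed the test with no member in 12 relations. The closest was FARP1 with genes detected, at r = -0.72 and a Spearman coefficient of -0.62 (permutation P = 0.0141 and 0.0491, adjusted P = 0.169 and 0.241).

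Genes most like each member from heifer to heifer were sought among the 13011 other tested genes, as a description. For KIFC3 the highest coefficients belonged to TGFB1, the cytokine stored in platelets, to ENSBTAG00000011882 and to VWF, each at r = 0.97, and the lowest to ENSBTAG00000006491 (r = -0.98). TGFB1 had 540 CPM in fertile heifer 6 and 195 CPM in fertile heifer 1, the extremes of its group. For FARP1 they were TMEM223 (0.97), ENSBTAG00000006395 (0.95) and GBGT1 (0.94), with RFC1, the large subunit of the clamp loader of DNA replication, lowest at -0.96. For SRF they were ENSBTAG00000006034 (0.94), ENSBTAG00000053918 (0.93) and ENSBTAG00000003421 (0.92), with the histone acetyltransferase gene KAT2B lowest at -0.93. For PPFIBP1 they were CABLES2 (0.88), ENSBTAG00000017584 (0.84) and DYNC2LI1 (0.84), with ENSBTAG00000043602 lowest at -0.87.

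The number of such relations differed widely among the members. At r of 0.8 or more KIFC3 had 607 genes, FARP1 294, SRF 56 and PPFIBP1 7, and at -0.8 or less they had 328, 409, 79 and 9. These counts were not taken for the other tested genes, so how unusual they are is not known. Counted within each group of 6 on variance-stabilized values at an absolute r of 0.95 or more, KIFC3 was connected with 232 genes among fertile and 631 among subfertile heifers, the 96.6th and 98.7th percentiles of all genes. SRF was connected with 183 and 39 genes (91.7th and 32.9th percentiles), the reverse order of the group medians over all genes, 56 and 61. FARP1 had 56 and 146 connections (49.8th and 72nd percentiles), and PPFIBP1 had 27 and 33 (12th and 25.5th percentiles). SRF was chosen by a score of this kind, so its counts are not independent of the choice. Each of these coefficients rests on only 6 heifers, and the difference in counts between the groups was not tested.

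The wider families of the 4 members could be examined only in part. Of 194 other genes listed for SRF cofactors and targets, Dbl-type exchange factors, kinesins, KIFC3 partners, liprins and related families, 44 have an identifier, and all of these were tested. Of the 44, 2 were called higher and 1 lower (6.82%), beside 5.14% of all named genes and 1.4% of all genes. The names come from tables that list the genes called by the study, so named genes hold more calls. The median log2FC of the 44 was -0.04, against 0.01 over all genes tested.

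Among the targets of SRF in the actin cytoskeleton, 9 of 10 tested genes had a log2FC below 0 (median -0.15), none of them called. The lowest values were -0.80 (SE 0.57) for MYL9 and -0.58 (SE 0.46) for ZYX, and the 2 with the highest CPM, ACTB and ACTG1, had -0.11 (SE 0.15) and -0.19 (SE 0.21). Without fertile heifer 6, 7 of the 10 were below 0 with a median of -0.03, and with the platelet genes in the model 4 of 10 were below 0 with a median of 0.04. The immediate early genes NR4A1 (-0.01, SE 0.33) and ATF3 (0.72, SE 0.37) and the cofactor MRTFA (-0.11, SE 0.14) were not called. MEF2B, the SRF paralog with an identifier, had 0.13 (SE 0.28).

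Of 9 other Dbl-type exchange factors, 1 was called, FGD5, with a log2FC of -1.33 (SE 0.59). FGD5 had 0.739, 1.73, 2.06, 3.56, 0.578 and 0.906 CPM in fertile heifers 1 to 6 and 0.699, 0.286, 0.492, 1.85, 0.289 and 0.215 CPM in subfertile heifers 1 to 6, so the groups overlapped. The call held in 4 of the 12 fits with 1 heifer left out. Those with the highest CPM, ARHGEF2 and FGD3, had -0.03 (SE 0.07) and -0.13 (SE 0.14).

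Of 12 other kinesins, the mitotic motors KIF15 (0.64, SE 0.29) and CENPE (0.66, SE 0.30) were called higher in subfertile heifers. KIF15 lay between 15.5 and 19.8 CPM in fertile heifers, and at 25.9, 21.5, 65.3, 15.1, 17.2 and 26.6 CPM in subfertile heifers 1 to 6. CENPE lay between 8.88 and 15.4 CPM in fertile heifers, and at 20.3, 10.3, 41.5, 17.5, 12.3 and 13.9 CPM in subfertile heifers 1 to 6. Subfertile heifer 3 was highest for both, and it also held the highest levels of the proliferation markers MKI67 (248 CPM) and TOP2A (148 CPM). Without it the log2FC was 0.22 for KIF15 and 0.28 for CENPE, neither called, and of the 12 fits with 1 heifer left out 3 called KIF15 and 4 called CENPE. The transport motors KIF5B (0.12, SE 0.18) and KIF3B (0.08, SE 0.09), those with the highest CPM, were not called, and KIFC2, the paralog of KIFC3, had 0.00 (SE 0.28).

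The partners of KIFC3 at cell junctions and centrosomes, CTNND1 (0.15, SE 0.37) and CROCC (0.19, SE 0.14), were not called. Among the liprins and their partners, PPFIA3, a liprin alpha, had 0.40 (SE 0.34), the receptor phosphatase gene PTPRF -0.22 (SE 0.16) and the microtubule plus-end protein gene CLASP1 -0.43 (SE 0.31), none of them called. The other listed paralogs of the members (the remaining MEF2 genes, FARP2, KIFC1, PPFIBP2 and the other liprin alphas) were not analysed here.

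**Figure D5:**
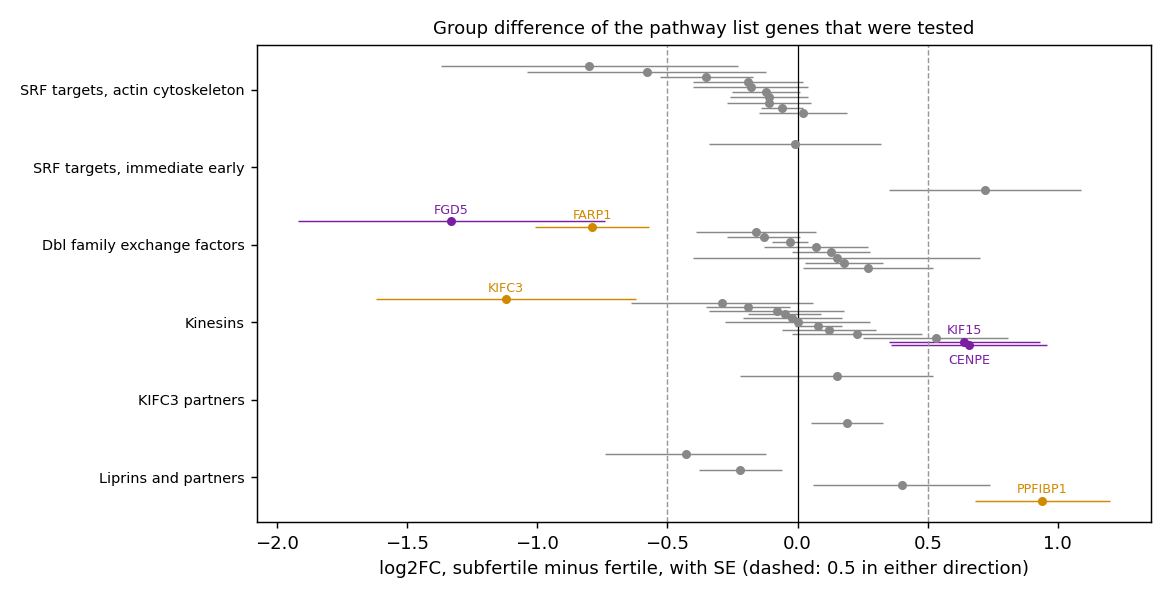
Group difference of the tested genes of 6 lists as log2FC with SE, subfertile minus fertile (x axis), by list (y axis). Orange marks the members FARP1, KIFC3 and PPFIBP1, purple the other genes past both thresholds and grey the rest. Apart from the members, FGD5 lies lower at -1.33 and KIF15 and CENPE higher at 0.64 and 0.66.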

How the data were processed

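RNA of PWBCs from 12 heifers was extracted in a single batch, and strand-specific poly(A) libraries were sequenced in a single run with both groups spread over its lanes. The authors checked reads with FastQC 0.11.9 and MultiQC 1.12, mapped them with STAR 2.7.5 to ARS-UCD1.3 and deposited raw counts per Ensembl gene, neither normalized nor filtered. The strand column taken is not given in the sources used here.

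Groups came from the pregnancy labels, and heifers were numbered in accession order. Genes were kept with filterByExpr (minimum count of 10), which retained at least 99.898% of each library. They were normalized with TMM and fitted with edgeR 4.0.16 in R 4.3.3 on the group alone. DESeq2 1.42.0 was an alternative. Correlations used log2 CPM (prior count of 2), with permutation tests in Python 3.11.15 and Benjamini-Hochberg adjustment within each family. On simulated data with 100 genes changed by 1 log2 unit, edgeR recovered 91 past both thresholds and 66 at adjusted P, while 625 of 12678 unchanged genes had an unadjusted P of 0.05 or less.

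The members and gene lists were chosen with earlier results of these data known. The genes named are the members, their paralogs, list genes past both thresholds, the 2 genes of highest CPM per list (not corrected for length), and for each member the 3 genes most like it and the 1 least like it. Other targets and markers were named after their values had been seen. The relations with 1 of the 10 marker lists, and the values of 1 pathway list, are not reported here. Names came from identifier and name pairs in the supplementary tables (2918 genes). Alternatives were DESeq2, other scalings and filters, the tract score, each heifer left out, another prior count, uncentred values and another correlation threshold.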

Additional observations from a re-analysis of the deposited data

Results flagged for a closer look

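In groups of 6, a highest or lowest heifer was marked when its gap to the nearest other heifer was a larger share of the group's whole range than the critical value of Dixon's test. The 4 members and the 3 other called list genes gave 14 sets of 6 values on the CPM scale, of which 4 were marked. A high value stands out more on CPM than on log2 CPM, and the marks were not computed on log2 CPM. Chance marks about 1 in 20 groups of unselected values, which is no comparison for genes chosen on these same values.

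KIFC3 was 116 CPM in fertile heifer 6, the gap to the next fertile heifer being 0.779 of the group's range. FGD5 was 1.85 CPM in subfertile heifer 4, above the other subfertile heifers by 0.704 of the range. KIF15 was 65.3 CPM and CENPE 41.5 CPM in subfertile heifer 3, with gaps of 0.772 and 0.678 of the range. SRF in fertile heifer 6 (81.1 CPM, 0.525 of the range) was not marked.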

How the results depend on the processing

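No paired analysis was possible because the labels give the heifers no numbers that are shared between the groups. The log2FC of the 4 members kept its direction under every alternative that gave a value. FARP1 and PPFIBP1 gave none under the filter of 10 CPM in 9 libraries, which removed them. The number of genes called was 624 without a filter, 37 under that stricter filter, and 118 (without fertile heifer 6) to 365 (without fertile heifer 1) with 1 heifer left out. The number of list genes called, 3 of 44, was 1 with library size alone, 0 with heifers of tract score 4 only, 0 with the platelet genes in the model, and 0 to 2 with 1 heifer left out.

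The correlation of FARP1 with KIFC3 was 0.70 with library size alone (permutation, adjusted P = 0.0645) and 0.69 to 0.81 with 1 heifer left out, where it lost the test without fertile heifer 1, fertile heifer 5, subfertile heifer 1 or subfertile heifer 5 (adjusted P = 0.0708, 0.0507, 0.118 and 0.0666). With the platelet genes taken out it was -0.10. The correlation of FARP1 with PPFIBP1 was -0.13 with library size alone, -0.55 with group means not subtracted, and -0.06 to 0.24 with 1 heifer left out. That of KIFC3 with PPFIBP1 was -0.15, -0.35 and -0.11 to 0.41. The number of targets correlated with SRF was 0 to 7 with 1 heifer left out, 0 without fertile heifer 1, 2 or 6 and 7 without subfertile heifer 4. At an absolute r of 0.90, connections in fertile and subfertile heifers were 644 and 136 for SRF, 240 and 584 for FARP1, 559 and 1669 for KIFC3, and 107 and 136 for PPFIBP1. The cause of these changes was not tested. Small counts of FARP1 and PPFIBP1 limit their precision.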
